A study of Mus musculus with 14 samples.

Results

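The enzymes that hydroxylate and cross-link collagen were followed through 2 stromal populations of mouse bone marrow, with and without granulocyte colony-stimulating factor (G-CSF). The set named 10 genes, namely the lysyl oxidases Lox, Loxl1, Loxl2, Loxl3 and Loxl4, the lysyl hydroxylases Plod1, Plod2 and Plod3, and the prolyl 4-hydroxylase alpha subunits P4ha1 and P4ha2. A gene was taken from the probe sets whose platform annotation gave exactly its symbol, and 9 of the 10 had such probe sets, 16 in all. Both Loxl2 probe sets also carry the symbol of another gene, so Loxl2 was not analysed here. The 16 probe sets all passed the filter on dim values, and the 9 genes are among 13453 genes tested.

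The osteoblast sort was GFP+ and negative for CD45, ter119 and CD31, from C57BL/6J mice of 6 to 8 weeks that carry pOBcol2.3-GFP, in which part of the promoter of a type I collagen gene drives GFP in osteoblasts. The endothelial sort was CD31+ and negative for CD45, ter119 and GFP, from the same mouse line. Each sort came from untreated mice, for which the protocol text speaks of vehicle, and from mice given G-CSF under the skin at 250 ug/kg, and the genotype of all groups is labelled wild type. There were 3 untreated and 3 G-CSF arrays of the GFP+ sort and 4 untreated and 4 G-CSF arrays of the CD31+ sort, 14 in all, each made from 100 ng of total RNA. G-CSF was given for 5 days by the titles and by the protocol text of the G-CSF samples. The protocol text that accompanies the untreated samples speaks of 7 days. Whether replicates are separate animals is not labelled, so the p-values measure only the spread between these samples.

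Collagen chains are modified before they fold. Prolyl 4-hydroxylases, tetramers of alpha subunits and the P4hb protein, hydroxylate prolines and so let the triple helix stay folded at body temperature, and lysyl hydroxylases act on lysines that later form cross-links or carry sugars. Plod2 encodes the enzyme for the telopeptide lysines whose hydroxylation gives the mature cross-links of bone, and Plod1 and Plod3 act mainly on lysines of the helix. Outside the cell the copper-dependent lysyl oxidases turn lysines and hydroxylysines of collagen and elastin into aldehydes, which then react to cross-links. Osteoblasts make the type I collagen of bone, and endothelial cells make the type IV collagen of their basement membrane.

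All values are log2(intensity + 16), called log2 levels here, and differences are differences of these levels, which understate the change of dim genes. The deposited intensities had a trimmed mean of 500 on each array, and the median log2 level of an array lay between 6.57 and 7.13. The mean log2 level of 8 endothelial markers was 12.77 to 13.24 on the CD31+ arrays and 8.59 to 9.56 on the GFP+ arrays. The mean of 6 measured osteoblast markers (of 9 listed) was 12.25 to 14.27 on the GFP+ arrays, 10.96 to 12.84 on the untreated CD31+ arrays and 8.48 to 11.78 on the G-CSF CD31+ arrays, so osteoblast genes were present in the CD31+ sort. Among the untreated GFP+ arrays replicate 2 stood apart, with a mean log2 level of 8 neutrophil genes of 14.47 against 11.69 and 11.21 in replicates 1 and 3, and of 4 B lineage genes of 10.36 against 6.51 and 7.46. The neutrophil mean was 13.33 to 14.17 on G-CSF GFP+, 12.81 to 13.59 on untreated CD31+ and 13.45 to 14.19 on G-CSF CD31+ arrays. On untreated CD31+ arrays the B lineage mean was 8.26 to 10.38, highest on replicate 2. Untreated CD31+ replicate 1 had a mean log2 level of 6 skeletal muscle genes of 13.68, against 7.82 to 9.74 on the other untreated CD31+ arrays. In RNA from a bulk sort, fewer cells of a type and less RNA per cell cannot be told apart.

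Between the sorts of untreated mice, 3 of the 9 enzyme genes passed the test at an adjusted p under 0.05. Loxl1 and Loxl3 were higher in the GFP+ sort, 7.24-fold and 3.29-fold, and Plod1 was 2.81-fold lower there. Over all genes tested, 13.6% were called higher and 12.8% lower in the GFP+ sort, and 16.7% lay higher and 15.9% lower there without overlap. The median difference of the 9 genes, GFP+ minus CD31+, was 0.76, and that of all genes was 0.

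Loxl1, an oxidase known for its part in elastic fibres, had log2 levels of 13.11, 13.2 and 13.12 on the untreated GFP+ arrays. Its levels were 10.33, 10.16, 10.42 and 10.23 on the untreated CD31+ arrays. The groups lay far apart and each was tight, with a difference of 2.86 ± 0.31 (SE, adjusted p = 8.47e-06). Loxl3, a further oxidase of the family, lay at 10.67, 10.38 and 10.83 in the untreated GFP+ sort and at 9.31, 8.16, 9.22 and 8.95 in the untreated CD31+ sort. Every GFP+ array was above every CD31+ array, and the difference was 1.72 ± 0.30 (SE, adjusted p = 0.000548).

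Plod1 ran the other way. Its log2 levels were 10.1, 10.03 and 10.26 in the untreated GFP+ sort and 11.47, 11.67, 11.63 and 11.73 in the untreated CD31+ sort. The CD31+ arrays were all higher, without overlap, and the difference, GFP+ minus CD31+, was -1.49 ± 0.18 (SE, adjusted p = 3.07e-05). Plod1 was the only one of the 9 genes that was called higher in the CD31+ sort, in untreated mice and after G-CSF alike.

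Lox, the family's founding member and the main oxidase of fibrillar collagen, was bright in both sorts of untreated mice. Its log2 levels were 14.15, 12.63 and 13.77 on the GFP+ arrays and 12.9, 10.82, 12.92 and 12.21 on the CD31+ arrays. The groups overlapped, since GFP+ replicate 2 lay below the highest CD31+ arrays, and the difference of 1.31 ± 0.74 (SE) did not pass (adjusted p = 0.221). Plod2 had the same shape, with 13.97, 11.61 and 13.47 in the untreated GFP+ sort and 12.48, 10.25, 12.57 and 11.9 in the untreated CD31+ sort. Replicate 2 was the lowest array in both groups, and the difference of 1.22 ± 0.69 (SE) did not pass either (adjusted p = 0.221). Loxl4, an oxidase of lower signal, gave 9.43, 7.64 and 9.1 against 8.63, 6.72, 8.22 and 8.3. Again replicate 2 was lowest in each group, and the difference was 0.76 (95% interval -0.31 to 1.83).

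The low GFP+ array in all 3 of these genes was the one with high neutrophil and B lineage genes. Without it, Plod2 passed the test in untreated mice at 1.92 (adjusted p = 0.0437), and without it and untreated CD31+ replicate 1, Plod2 was at 2.15 (adjusted p = 0.0381) and Loxl4 at 1.52 (adjusted p = 0.034), so that 5 of the 9 genes were called. Without both arrays more genes were called in all, 2002 higher and 2112 lower of 13455, against 1831 and 1722 of 13453 with all arrays. The same array had the highest Plod3 level of all 14, 11.54. The part of the other cell types' RNA in these values was not tested.

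The remaining hydroxylase genes had close levels in both sorts. Plod3, whose product also carries sugar transferase activity, was at 10.35, 11.54 and 10.32 in the untreated GFP+ sort and at 10.19, 10.82, 10.59 and 10.17 in the untreated CD31+ sort. Apart from the 11.54 all lay between 10.17 and 10.82, and the difference was 0.29 (95% interval -0.28 to 0.86). P4ha1, an alpha subunit found in most tissues, was at 10.99, 9.43 and 11.02 against 11.05, 9.59, 10.91 and 10.33. The sorts covered the same range, with a difference of 0.01 and a 95% interval from -0.99 to 1.02, which reaches about 2-fold either way. P4ha2, the alternative alpha subunit, was at 10.92, 10.17 and 11.14 against 11.39, 10.22, 11.32 and 11.25, a difference of -0.30 (95% interval -1.11 to 0.50). Its groups overlapped too.

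**Figure D1:**
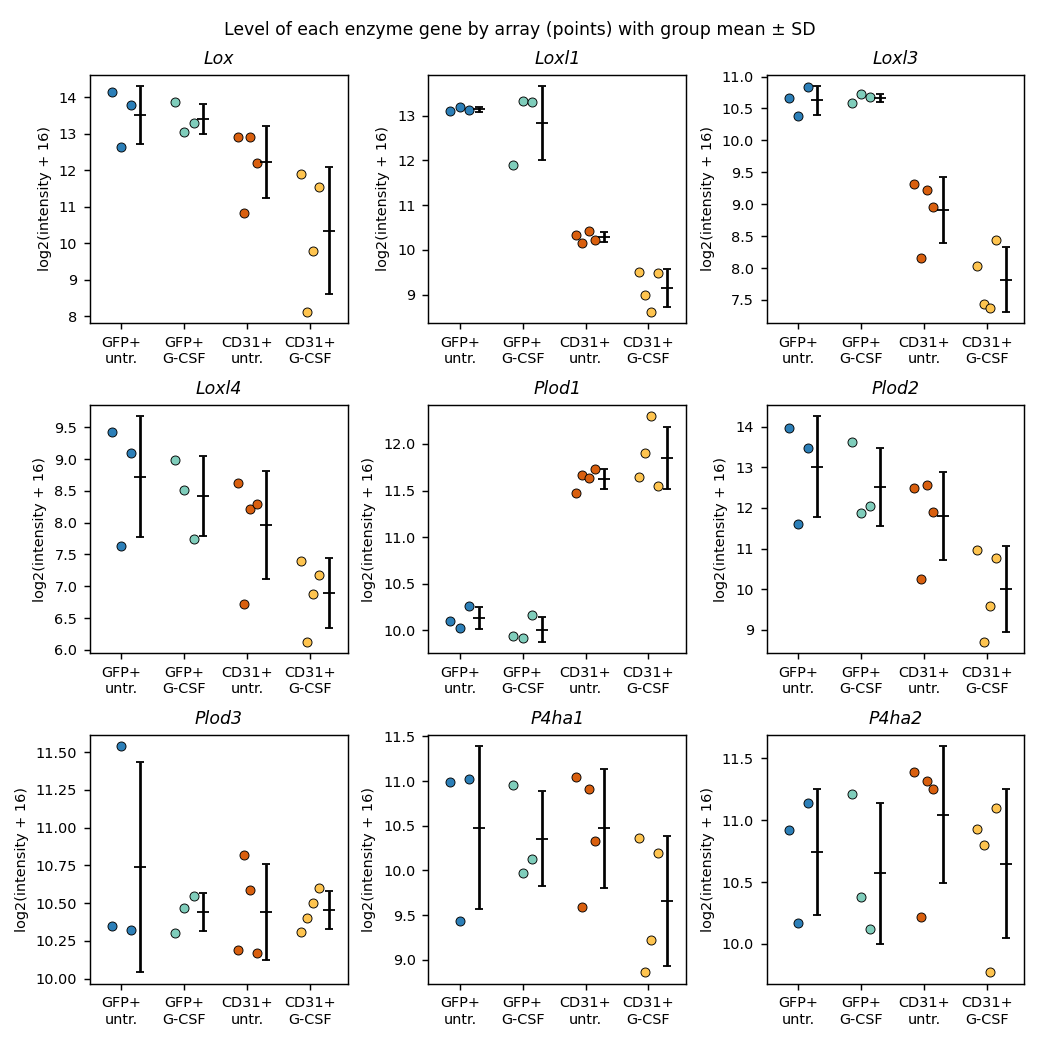
Log2(intensity + 16) of each of the 9 enzyme genes on every array (points), by sort and treatment, with the group mean ± SD beside the points (n = 3 for GFP+, n = 4 for CD31+). Loxl1 and Loxl3 separate the sorts with no overlap, and Plod1 does so in the opposite direction. The CD31+ G-CSF arrays have the lowest group mean for Lox, Loxl1, Loxl3, Loxl4, Plod2 and P4ha1.

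The same comparison after G-CSF used other arrays, and 6 of the 9 genes passed. Lox, Loxl1, Loxl3, Loxl4 and Plod2 were higher in the GFP+ sort and Plod1 was lower, each without overlap between the groups. Over all genes 17.5% were called higher and 14.4% lower in the GFP+ sort, and 21.4% lay higher and 18% lower without overlap. The median difference of the 9 genes was 1.52, against 0.02 for all genes.

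Loxl1 was 13-fold higher in the GFP+ sort after G-CSF (adjusted p = 5.12e-07), with log2 levels of 11.89, 13.34 and 13.3 against 9.51, 8.98, 8.61 and 9.48. Even its lowest GFP+ array, replicate 1, lay above all CD31+ arrays. Lox was 8.31-fold higher (difference 3.05 ± 0.74, SE, adjusted p = 0.0054), at 13.86, 13.05 and 13.28 against 11.89, 8.12, 9.8 and 11.55. The GFP+ arrays lay close together and the CD31+ arrays were spread widely, replicates 2 and 3 being lowest. Loxl3 was 7.17-fold higher (adjusted p = 4.19e-06), at 10.59, 10.72 and 10.68 against 8.03, 7.43, 7.38 and 8.44. Its GFP+ arrays were almost level with each other and well above the CD31+ sort.

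Plod2 was 5.7-fold higher in the GFP+ sort after G-CSF (adjusted p = 0.0119), with 13.61, 11.88 and 12.04 against 10.96, 8.7, 9.58 and 10.76. GFP+ replicate 1 was the highest array by far, and without it the difference was 1.96 (adjusted p = 0.0683). Loxl4 was 2.87-fold higher (adjusted p = 0.0306), with 8.99, 8.52 and 7.75 against 7.4, 6.12, 6.88 and 7.17. The gap between its groups was small, and the call was lost without G-CSF GFP+ replicate 1 (adjusted p = 0.123) or 2 (0.0827), without G-CSF CD31+ replicate 2 (0.09) or 3 (0.0534), and with quantile normalization (0.099). Plod1 was 3.59-fold lower in the GFP+ sort (adjusted p = 2.82e-06), at 9.94, 9.92 and 10.16 against 11.65, 11.9, 12.3 and 11.55. Its CD31+ arrays were all above its GFP+ arrays.

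Plod3, P4ha1 and P4ha2 did not pass after G-CSF, with differences of -0.01, 0.70 and -0.08. Their 95% intervals were -0.58 to 0.56, -0.31 to 1.70 and -0.88 to 0.72. The groups of all 3 overlapped.

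**Figure D2:**
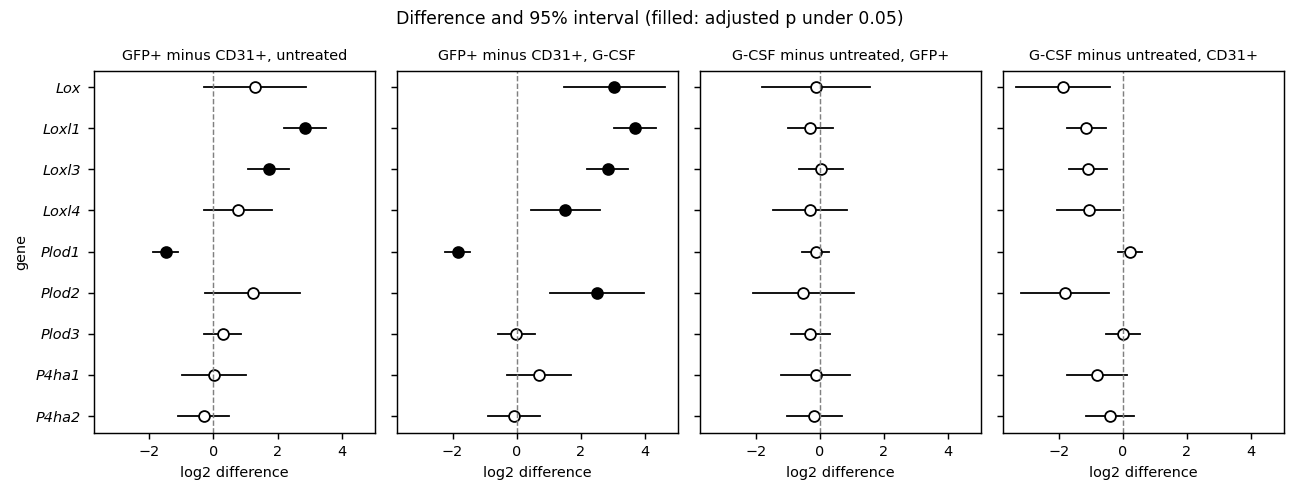
Difference of log2 level with its 95% interval for the 9 enzyme genes in 4 comparisons; filled points passed an adjusted p under 0.05 in the limma fit without a replicate block. Loxl1, Loxl3 and Plod1 are filled in both comparisons of the sorts, Lox, Loxl4 and Plod2 only in the one after G-CSF, and no point is filled for G-CSF against untreated.

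Ordered by level, the groups followed a shared pattern for 4 of the 5 genes that were higher in the GFP+ sort. For Lox, Loxl1, Loxl4 and Plod2 the order was untreated GFP+, G-CSF GFP+, untreated CD31+ and G-CSF CD31+, and for Loxl3 the first pair changed places. The GFP+ neighbours differed by 0.03 to 0.51 in these genes, less than the pooled SD of each pair, and their arrays overlapped. Within untreated mice the sorts were free of overlap for Loxl1 and Loxl3 but not for Lox, Loxl4 and Plod2, and untreated and G-CSF CD31+ arrays were free of overlap for Loxl1 alone. Plod1 had the order G-CSF CD31+, untreated CD31+, untreated GFP+ and G-CSF GFP+, and its only neighbours without overlap were the CD31+ and GFP+ sorts of untreated mice. For Plod3, P4ha1 and P4ha2 all neighbours overlapped.

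In the GFP+ sort none of the 9 genes passed the limma test of G-CSF against untreated, and 0 had an unadjusted p under 0.05. The call rate over all genes was low in this comparison as well, 0.186% higher and 0.0446% lower, and 8.85% of genes had an unadjusted p under 0.05 in either direction. The largest difference was that of Plod2, -0.51 (95% interval -2.09 to 1.07), and over left-out arrays it ran from -1.21 to -0.03 without a call. Without untreated GFP+ replicate 2, 425 genes were called higher and 47 lower over all genes, against 25 and 6 with all arrays. The intervals of Lox, Loxl4, Plod2, P4ha1 and P4ha2 reach beyond a 2-fold change. The narrowest interval was that of Plod1, -0.54 to 0.30 around -0.12. The median difference of the 9 genes was -0.17, against -0.04 for all genes, and with the replicate number as a block none was called either, where 0.334% of all genes were called higher and 0.141% lower. The neutrophil markers had a mean log2 level of 13.33 to 14.17 on the G-CSF GFP+ arrays and 11.21 to 14.47 on the untreated ones. The part of such RNA in these differences was not tested.

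In the CD31+ sort 7 of the 9 genes were lower after G-CSF than in untreated mice, and Lox, Plod2, Loxl1, Loxl3 and Loxl4 were lower by between 1.07 and 1.87 on the log2 scale. None passed the test over all genes without a replicate block, in which 1.14% of genes were called lower and 0.453% higher. At an unadjusted p under 0.05 these 5 of 9 were lower and none higher, against 8.9% of all genes lower and 4.22% higher. The median difference of the 9 genes was -1.07, and that of all genes -0.05. With the replicate number as a block, Lox, Loxl1, Loxl3 and Plod2 passed, against 3.87% of all genes called lower and 1.03% higher in that fit.

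Lox was at 12.9, 10.82, 12.92 and 12.21 in untreated replicates 1 to 4 and at 11.89, 8.12, 9.8 and 11.55 in G-CSF replicates 1 to 4. It was lower in 4 of 4 pairs of the same number, by 0.66 to 3.12 in size, though the groups overlap because untreated replicate 2 is low. The difference was -1.87 ± 0.69 (SE), with an adjusted p of 0.219 without the block and 0.0183 with it. Leaving out G-CSF replicate 2, the lowest array, brought it to -1.13, and over all left-out arrays it ran from -2.39 to -1.13. Plod2 was at 12.48, 10.25, 12.57 and 11.9 on the untreated arrays and at 10.96, 8.7, 9.58 and 10.76 on the G-CSF arrays. It too was lower in 4 of 4 pairs, with replicate 2 lowest under both conditions and the largest gap in replicate 3. Its difference was -1.80 ± 0.64 (SE), with an adjusted p of 0.2 without and 0.0116 with the block.

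Loxl1 differed less but more evenly, with 10.33, 10.16, 10.42 and 10.23 on the untreated arrays and 9.51, 8.98, 8.61 and 9.48 on the G-CSF arrays. It was the only one of the 9 genes whose untreated and G-CSF CD31+ arrays did not overlap, where 5.62% of all genes were lower without overlap. The difference was -1.14 ± 0.28 (SE), with an adjusted p of 0.0593 without and 0.0316 with the block. Loxl3 was at 9.31, 8.16, 9.22 and 8.95 on the untreated arrays and at 8.03, 7.43, 7.38 and 8.44 on the G-CSF arrays. It was lower in 4 of 4 pairs by -1.09 ± 0.27 (SE), with an adjusted p of 0.0599 without and 0.0208 with the block. Untreated replicate 2 was again the array that overlapped the G-CSF group.

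Loxl4 was lower in 4 of 4 pairs as well, by -1.07 ± 0.46 (SE), and passed neither without the block (adjusted p = 0.324) nor with it (0.0972). P4ha1 was lower in 4 of 4 pairs by -0.81 (95% interval -1.74 to 0.12), with an adjusted p of 0.479 without and 0.14 with the block. P4ha2 was lower in 3 of 4 pairs, by -0.39 (95% interval -1.14 to 0.35). Plod1 was at 11.47, 11.67, 11.63 and 11.73 on the untreated arrays and 11.65, 11.9, 12.3 and 11.55 on the G-CSF arrays. It was higher in 3 of 4 pairs, by 0.23 (95% interval -0.14 to 0.59). Plod3 had a difference of 0.01 (95% interval -0.52 to 0.53) and was lower in 2 of 4 pairs. Its arrays stayed between 10.17 and 10.82 under both conditions.

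The blocked calls differed in how firmly they held. With both arrays of 1 replicate number left out in turn, Plod2 was called in each of the 4 fits (adjusted p from 0.0219 to 0.0498), Lox without number 1 (0.0403) or 4 (0.0144), Loxl3 without number 2 (0.0485) or 4 (0.026), and Loxl1 in none (0.0628 to 0.146). Over all genes, leaving out numbers 1 to 4 gave 226, 296, 201 and 316 called lower and 41, 77, 47 and 48 higher. The blocked fit with all arrays gave 521 and 139. With the block and quantile normalization, Lox (adjusted p = 0.0237) and Plod2 (0.0177) passed and Loxl1 (0.0541) and Loxl3 (0.0521) did not. With the block and arrays centred on their median it was likewise Lox (0.0329) and Plod2 (0.0265) that passed, and not Loxl1 (0.0611) or Loxl3 (0.0612).

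As a mean, the osteoblast markers moved with these genes in the CD31+ sort. Their mean log2 level over the 6 measured genes was 12.84, 10.96, 12.53 and 12.52 on untreated replicates 1 to 4 and 11.78, 8.48, 9.96 and 11.7 on G-CSF replicates 1 to 4, so replicate 2 was lowest in both groups, as it was for Lox and Plod2. Alpl, the alkaline phosphatase of osteoblasts, was called lower (-1.59, adjusted p = 0.0321), as 1 of 6, and with the block 4 of 6 were, namely Ibsp, Sp7, Alpl and Phex. Over all genes 1.14% were called lower without the block and 3.87% with it. Of the rest, Col1a1 was lower in 4 of 4 pairs (-1.37) and Dmp1 in only 2 of 4 (-0.25). The mean of the 8 endothelial markers was 12.77 to 13.24 in untreated mice and 12.81 to 13.11 after G-CSF, and 0 of 8 were called or had an unadjusted p under 0.05. The 3 measured erythroid markers had a mean of 9.61 to 10.91 in untreated mice and 6.4 to 9.79 after G-CSF. Of these, 1 of 3 was called lower without the block and all 3 with it. Fibroblast and tendon markers had a mean over 6 genes of 8.75, 8.27, 8.57 and 8.79 in untreated mice and 8.44, 7.19, 7.39 and 7.76 after G-CSF, lower in each pair. Of these 6, Pdgfra was called lower without the block (-2.28, adjusted p = 0.0249), and Pdgfra and Tnmd with it. The mean of 4 B lineage markers was 8.26 to 10.38 in untreated mice and 6.22 to 8.27 after G-CSF. Here 0 of 4 were called without the block (3 lower at an unadjusted p under 0.05 in limma) and 1 was lower with it. The mean of 6 skeletal muscle markers was 7.82 to 13.68 in untreated mice and 7.09 to 8.7 after G-CSF. Here 0 of 6 were called either way (1 lower at an unadjusted p under 0.05 in limma without the block). Of 3 osteoclast and 6 chondrocyte markers, 1 each was called lower with the block. The part of any of these cell types' RNA in the enzyme differences was not tested.

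**Figure D3:**
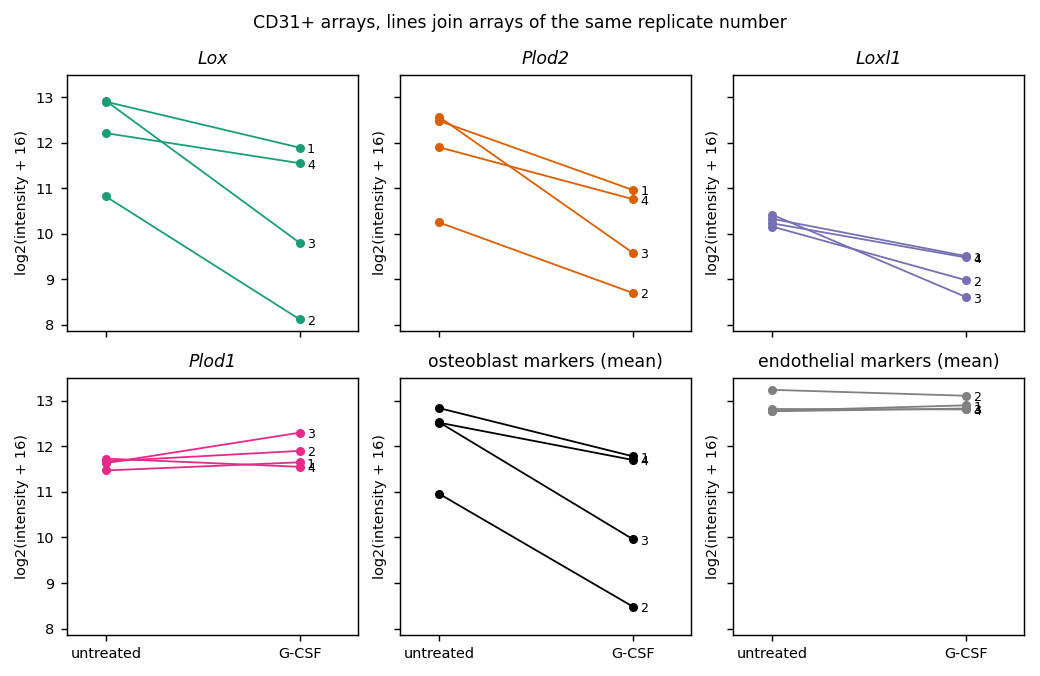
Log2(intensity + 16) on the untreated and G-CSF CD31+ arrays for 4 enzyme genes and for the mean of 6 osteoblast and 8 endothelial markers. Lines join arrays with the same replicate number, printed at the right, and the joined arrays come from different mice. Lox, Plod2, Loxl1 and the osteoblast mean are lower on the G-CSF array in all 4 pairs with replicate 2 or 3 lowest, while Plod1 and the endothelial mean are not.

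Whether G-CSF acted differently in the sorts was tested directly, as the change in the GFP+ sort minus that in the CD31+ sort. No member passed, and neither did any of the 13453 genes (0%), although 4.62% of genes had an unadjusted p under 0.05. Loxl3 was the only member with an unadjusted p under 0.05 (difference of changes 1.13, 95% interval 0.23 to 2.02, adjusted p = 0.947). Lox had the widest gap, 1.75 (95% interval -0.49 to 3.99). With the block 0 of the 9 genes passed, and 0% of all genes higher and 0.00743% lower, with adjusted p-values of 0.341 for Loxl3 and 0.387 for Lox. A difference in response between the sorts was thus not established for any of the 9 genes.

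The other probe sets of the same genes gave a second reading. The Lox probe set 1448228_at had 2.84 for the sorts after G-CSF and -1.96 for G-CSF in the CD31+ sort, close to the 3.05 and -1.87 of the probe set 1416121_at that stood for the gene. The Plod2 probe set 1416686_at gave 2.47 and -1.66, against 2.51 and -1.80 for 1416687_at. For Loxl1, 1436063_at gave 3.20 and -0.91, against 3.70 and -1.14 for 1451978_at. For P4ha1 the readings differed more, though none was called: 1426519_at gave 0.00 between the sorts after G-CSF and -0.62 for G-CSF in the GFP+ sort, where 1452094_at gave 0.70 and -0.13. The dimmer probe sets 1437903_at of Lox, 1450134_at of Loxl4 and 1445893_at of Plod1 showed no called difference in any comparison. For Plod1 this means that 1445893_at gave -0.10 between the sorts of untreated mice, where 1416289_at gave -1.49.

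Promoter sequences, 250 bases upstream of the annotated start, were taken from the RefSeq table of build GRCm38.p6 for 5 of the members. The search passed over 1 chromosome, so it does not show that the other members, Lox among them, lack an entry. The 2 shown belong to those of the 5 that were called between the sorts, Plod1, higher in the CD31+ sort, and Loxl4, higher in the GFP+ sort after G-CSF. Capitals mark GCGTG or its reverse complement CACGC. This is a core letter pattern of hypoxia response elements, shown because PLOD and P4HA genes are known hypoxia targets. Loxl4 is in neither family, which does not by itself place it outside the hypoxia targets. Plod1 is from chr4:147936777-147937026 and Loxl4 from chr19:42612807-42613056, both on the minus strand.
Plod1: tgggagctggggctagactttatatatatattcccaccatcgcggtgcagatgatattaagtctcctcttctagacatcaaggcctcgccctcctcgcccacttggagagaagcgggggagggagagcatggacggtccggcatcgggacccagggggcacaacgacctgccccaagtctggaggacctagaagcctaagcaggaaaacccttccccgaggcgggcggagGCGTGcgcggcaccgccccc
Loxl4: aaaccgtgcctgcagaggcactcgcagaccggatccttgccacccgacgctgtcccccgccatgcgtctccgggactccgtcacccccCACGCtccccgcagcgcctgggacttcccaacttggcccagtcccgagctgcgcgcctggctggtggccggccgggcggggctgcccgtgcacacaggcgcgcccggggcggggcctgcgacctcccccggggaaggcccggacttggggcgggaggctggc
Each holds 1 match to GCGTG and 0 to ACGTG over both strands, and 28.2% and 16.6% of the 32851 promoters of that length in the table hold these patterns. Of the members not shown, Plod3 has 3 matches to GCGTG, P4ha1 2 and P4ha2 2, and each of them has 1 to ACGTG. Plod1 also holds TATAAA on 1 of the strands, as 12.4% of promoters do, and 2 matches to GGGCGG. Loxl4 has 3 matches to GGGCGG, a pattern in 32.7% of promoters, and 27 CG dinucleotides against a median of 6. The matches are descriptions of letters in these windows.

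Among 21 other measured enzymes and chaperones of collagen modification (of 22 listed), 6 were higher and 1 lower in the GFP+ sort of untreated mice, and 13 and 1 after G-CSF. Over all genes 13.6% were called higher and 12.8% lower in untreated mice, and 17.5% and 14.4% after G-CSF. P4ha3, the third alpha subunit of prolyl 4-hydroxylase, was higher in the GFP+ sort of untreated mice (adjusted p = 0.00148) and after G-CSF (adjusted p = 2.15e-06). It was dim in the CD31+ sort, at 4.1, 4.33, 4.93 and 5.21 after G-CSF, near the lowest log2 level that the added 16 allows, so no fold is given. Its log2 levels in untreated mice were 7.82, 7.59 and 8.41 in the GFP+ sort and 6.04, 4.79, 5.95 and 6.59 in the CD31+ sort. It thus separated the sorts where P4ha1 and P4ha2 overlapped. P3h3, of the prolyl 3-hydroxylase family, was 2.94-fold and 5.72-fold higher, and Mia3, which helps to load procollagen into transport carriers, 3.87-fold and 3.83-fold. Colgalt2, a transferase of galactose to hydroxylysine, was 4.68-fold lower in the GFP+ sort of untreated mice (adjusted p = 0.00027), the same direction as Plod1.

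Of 11 collagen and elastin genes, 3 were higher and 2 lower in the GFP+ sort of untreated mice, and 7 and 2 after G-CSF. The shares over all genes were again 13.6% and 12.8% in untreated mice, and 17.5% and 14.4% after G-CSF. Col4a1 and Col4a2, the main chains of basement membrane collagen, were 4.02-fold and 5.86-fold lower in the GFP+ sort of untreated mice. Col3a1 and Col6a1 were 3.61-fold and 5.8-fold higher. Of 14 measured genes for procollagen processing and partners of the oxidases (of 18 listed), 6 were higher and 1 lower in untreated mice, and 8 and 1 after G-CSF. Postn, a matricellular protein that binds collagen and Bmp1, was 27.7-fold higher in untreated mice, Fmod, a small proteoglycan that binds fibrils, 7.99-fold, and Bmp1, the protease that trims procollagen and activates Lox, 3.65-fold.

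In the CD31+ sort after G-CSF, the list of substrates had 1 of 11 called lower without the block, Col3a1, by -1.67 ± 0.34 (SE, adjusted p = 0.0296). Col3a1 was at 14.26, 13.13, 13.94 and 14.16 on the untreated arrays and 13.22, 11.39, 11.69 and 12.53 on the G-CSF arrays. With the block 6 of the 11 were lower, namely Col2a1, Col3a1, Col5a1, Col5a2, Col6a1 and Col11a1. Over all genes 1.14% were called lower without the block and 3.87% with it. Of the other modifying enzymes limma called 0 of 21 without the block (7 lower and 1 higher at an unadjusted p under 0.05) and 5 lower with it, namely P3h1, P3h3, P3h4, Crtap and Creb3l1. Of the processing genes and partners it was 0 of 14 (8 lower at an unadjusted p under 0.05) and 6 of 14, namely Bmp1, Pcolce, Fn1, Postn, Lum and Dcn. The median difference was -1.37 for the substrates, -0.77 for the processing genes and -0.46 for the modifying enzymes. In the GFP+ sort the medians of the same lists were 0.01, 0.04 and -0.05, with 0 called by limma without the block, 3 higher and 2 lower at an unadjusted p under 0.05, and Col2a1 alone lower with the block (-1.96, adjusted p = 0.0238).

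**Figure D4:**
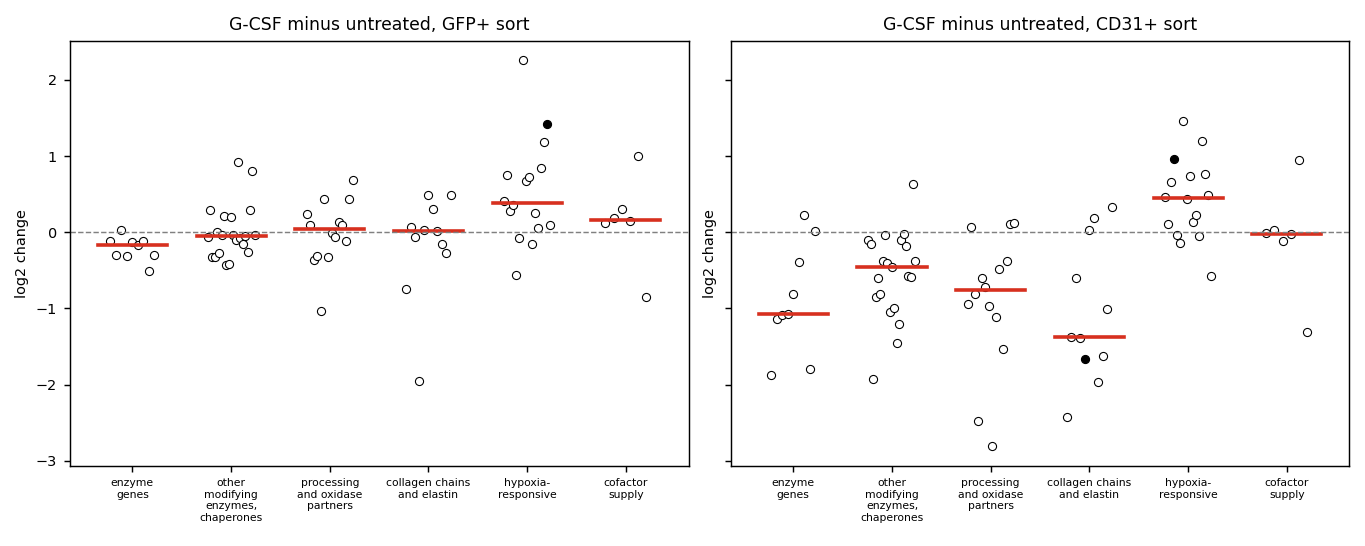
Log2 change after G-CSF of the 9 enzyme genes and of the measured genes of 5 related lists in the GFP+ sort (left) and the CD31+ sort (right); each point is a gene, red bars are list medians, and filled points passed an adjusted p under 0.05 without a replicate block. In the CD31+ sort the medians of the enzymes (-1.07) and of their substrates (-1.37) lie lowest, and the filled points are Col3a1 and Bnip3, while in the GFP+ sort only Slc2a1 is filled.

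The genes whose levels ran most like each enzyme's over the 14 arrays are given as a description, and the arrays share sorts and treatments, so a high correlation needs no more than a like difference between sorts. For Lox they were Slc36a2, Wnt4 and Creb3l1 (Pearson's r = 0.982, 0.98 and 0.979), for Loxl1 Plxdc2, Spon1 and Ogn (0.987, 0.987 and 0.986), and for Loxl3 Ccdc80, Tbx15 and Prrx1 (0.995, 0.991 and 0.99). Loxl4 ran most like Maged2, Metrnl and Ell2 (0.962, 0.958 and 0.954), and Plod2 like Ell2, Tmem263 and Ptprs (0.986, 0.983 and 0.979). Ell2, an elongation factor, was thus near to both. Plod1 ran most like Gdpd1, Acer2 and Bok (0.984, 0.982 and 0.979). The values were lower for Plod3, with 2610318N02Rik, Macroh2a1 and Jpt1 (0.902, 0.884 and 0.872), and for P4ha2, with Gars, Cracdl and Creb3l3 (0.899, 0.897 and 0.83). P4ha1 ran most like Kcnk1, Smpd3 and Hapln4 (0.947, 0.945 and 0.942).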

How the data were processed

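Total RNA of sorted marrow cells was measured on 14 Affymetrix arrays. The authors deposited linear intensity values, 1 per probe set, made with Affymetrix Expression Console 1.1 per the submitters' processing notes; the sources used here do not give the summarising algorithm or a genome build. Of 45101 probe sets, 64 controls, 932 with several symbols and 9160 with none were left out. Here the intensities became log2(intensity + 16) with no further normalization, the dimmest 0.333 of probe sets was dropped, and the probe set of highest mean stood for each of 13453 genes. A symbol can be older than current annotation. No detection values came with the intensities, so the background of a probe set is unknown, and 14 arrays limit the precision. The ratio of the 3' to the 5' control probe set of actin was 11.03 and 10.49 on untreated and G-CSF GFP+ replicate 3. On the other arrays it was 2.62 to 6.57, and that of Gapdh was 5.88 to 20.92 over all arrays. The part of this uneven RNA quality in the values was not tested.

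The arrays were fitted together with limma 3.58.1 (R 4.3.3) as 4 group means, and the variance prior followed intensity. Tests are two-sided, adjusted by Benjamini-Hochberg over all genes, and a call is an adjusted p under 0.05. The script was tested on simulated data. Replicate numbers come from the titles. Same-numbered arrays of the untreated and treated groups had deviations from their group means that correlated by 0.223 to 0.315 in the GFP+ sort and 0.102 to 0.377 in the CD31+ sort, each array best with its own number, so the numbers were taken to pair the arrays, and a block within each sort was an alternative. Blocked p-values stand beside results whose call they change. Other alternatives were pseudocounts of 1 and 64, quantile normalization, median centring, other filters and probe set rules, the arrays compared alone, array weights, a prior without trend, the number of decimals in the deposited column as a batch term, and arrays left out. GFP+ replicates 2 and 3 of both treatments had 7 decimals, and GFP+ replicate 1 and all CD31+ arrays had 1. This term thus overlaps in part with sort and with replicate number, and whether it marks a batch is not labelled. The named genes were the members, up to 4 called genes with the largest change per related list and comparison (otherwise its 2 largest), and the 3 genes most correlated with each member. Members and lists were chosen with earlier results of these data known.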

Additional observations from a re-analysis of the deposited data

Results flagged for a closer look

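P4ha2 on untreated CD31+ replicate 2 had a log2 level of 10.22, while the other untreated CD31+ arrays were at 11.25 to 11.39. Its gap to the nearest of the others was 0.877 of the range of the group, above the critical value of Dixon's test for 4 arrays. The 9 genes gave 18 groups of 4 arrays over both CD31+ conditions, and chance marks about 1 in 20 groups. P4ha2 was not called in any comparison.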

How the results depend on the processing

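Loxl1, Loxl3 and Plod1 between the sorts kept direction and call under all 27 settings run in untreated mice and all 27 after G-CSF, and Lox did so after G-CSF. Leaving out single arrays gave 3 to 4 called members between the sorts of untreated mice, 4 to 6 after G-CSF, 0 to 3 for G-CSF in the CD31+ sort, pairs left out with the block included, and 0 in the GFP+ sort. Over all genes single left-out arrays gave 1270 to 2181 called higher and 1328 to 2349 lower between untreated sorts. Between the sorts after G-CSF it was 1868 to 2616 and 1532 to 2258. For G-CSF they gave 15 to 190 higher and 15 to 364 lower in the CD31+ sort. In the GFP+ sort it was 2 to 425 and 2 to 47. Pairs left out with the block gave 41 to 77 higher and 201 to 316 lower. For G-CSF in the CD31+ sort, 0 members became 4 with the replicate block, 2 with the block and quantile normalization, 2 with the block and median centring, 3 with array weights, 1 with only the arrays compared and 1 with the decimals as a batch term. Over all genes array weights called 685 lower and 344 higher, only the arrays compared 222 and 240, the decimals 171 and 73, the block with quantile normalization 359 and 111 and the block with centring 325 and 290; the alternatives with both block and scaling, and those that drop a pair, were chosen after seeing the data. The pairing changed no other member's call. Without untreated GFP+ replicate 2, Loxl1 (adjusted p = 0.0387) and Loxl3 (0.0362) were called for G-CSF in the CD31+ sort, as were Loxl1 without G-CSF GFP+ replicate 1 (0.0118) and Loxl3 without untreated CD31+ replicate 2 (0.0149) or G-CSF CD31+ replicate 4 (0.0349). In that order, these fits called 364 lower and 190 higher over all genes, 153 and 73, 325 and 68, and 143 and 32. Both arrays left out raised the count between untreated sorts from 3 to 5. The blocked fit called 521 genes lower and 139 higher in the CD31+ sort, against 154 and 61.

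Median centring moved the median of all genes to -0.23 and -0.37 between the sorts and 0.13 for G-CSF in the CD31+ sort, and quantile normalization to -0.10 and -0.13 between the sorts. Centring turned the split of genes called higher and lower from 1831 and 1722 to 1239 and 2575 between untreated sorts, from 2351 and 1936 to 1452 and 3974 after G-CSF, and from 61 and 154 to 83 and 56 in the CD31+ sort. Loxl4 between the sorts after G-CSF lost its call with centring (adjusted p = 0.0846) and with the mean of its probe sets (0.0508).

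Only uncalled differences changed sign. Between untreated sorts P4ha1 was -0.22 with centring and -0.02 with the mean of probe sets, Plod3 -0.01 with array weights and -0.19 without both arrays, and P4ha2 0.10 with the decimals and 0.10 without both arrays. After G-CSF Plod3 was 0.03 with quantile normalization and 0.02 with weights, and P4ha2 0.33 with the decimals. For G-CSF in the GFP+ sort, with weights and without both arrays, Loxl3 was -0.07 and -0.09 and Plod3 0.03 and 0.10. In the CD31+ sort Plod3 was 0 with quantile normalization, with or without the block, -0.01 with weights and -0.08 without both arrays. For the difference of changes, with weights and without both arrays, Plod3 was 0.03 and 0.18 and P4ha2 -0.20 and -0.18, and P4ha1 was -0.03 without both arrays. Leaving out single arrays gave, for G-CSF in the GFP+ sort, Lox -0.56 to 0.19, Loxl1 -0.55 to 0.18, Loxl3 -0.09 to 0.13, Loxl4 -0.85 to 0.04, P4ha1 -0.65 to 0.14, P4ha2 -0.49 to 0.05 and Plod3 -0.50 to 0.10. It gave P4ha1 -0.28 to 0.54 and Plod3 -0.11 to 0.50 between untreated sorts, P4ha2 -0.40 to 0.14 and Plod3 -0.07 to 0.06 after G-CSF, Plod3 -0.13 to 0.15 for G-CSF in the CD31+ sort, and P4ha2 -0.10 to 0.50 and Plod3 -0.51 to 0.10 for the difference of changes. The cause of these changes was not tested.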

Other observations

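Hydroxylases need iron, ascorbate, oxoglutarate and oxygen, and several PLOD and P4HA genes are known to respond to low oxygen, so 16 hypoxia-responsive genes were looked at beside them. After G-CSF 1 of the 16 was called higher in each sort, against 0.186% of all genes in the GFP+ sort and 0.453% in the CD31+ sort. Slc2a1, a glucose transporter, was 2.67-fold higher in the GFP+ sort after G-CSF (adjusted p = 0.0325). Its levels were 8.37, 9.52 and 8.81 on the untreated and 10.13, 10.35 and 10.46 on the G-CSF arrays. The neutrophil marker mean of the same GFP+ arrays was 11.69, 14.47 and 11.21 untreated and 14.12, 14.17 and 13.33 after G-CSF. The part of such RNA in the values of the hypoxia list was not tested. Bnip3, a mitophagy gene, was 1.95-fold higher in the CD31+ sort after G-CSF (adjusted p = 0.0404). Its levels were 10.17, 10.21, 9.86 and 9.87 on the untreated and 11.29, 11.15, 10.35 and 11.17 on the G-CSF arrays. Pfkfb3, a regulator of glycolysis, was also higher there with the replicate block (1.20, adjusted p = 0.00908; without it 0.0668). The median change of the list was 0.38 in the GFP+ sort and 0.45 in the CD31+ sort, against -0.04 and -0.05 for all genes. At an unadjusted p under 0.05 in limma, 5 of the 16 were higher in the GFP+ sort and 6 in the CD31+ sort, and 0 lower. Over all genes 8.85% were so in either direction in the GFP+ sort, and 4.22% higher in the CD31+ sort. Vegfa in the CD31+ sort (-0.58) and Car9 in the GFP+ sort (-0.56) had negative differences. The enzyme genes had medians of -0.17 and -1.07, and a link between them and this list was not tested. Of the 6 measured genes for cofactor supply (of 7 listed), 0 were called after G-CSF in either sort, with or without the block. Slc2a3, which takes up glucose and oxidised ascorbate, differed by 1.00 in the GFP+ sort (adjusted p = 0.571) and by 0.95 in the CD31+ sort (adjusted p = 0.318), and Tfrc, the transferrin receptor, by -0.85 (0.66) and -1.31 (0.131). At an unadjusted p under 0.05 there were 0 of these 6 genes in the GFP+ sort and 2 in the CD31+ sort, 1 in each direction.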
